A study of Rattus norvegicus with 9 samples.

Results

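The 9 genes followed here encode the catalytic and regulatory subunits of class I phosphoinositide 3-kinase (PI3K) and SHIP1, a phosphatase that acts on the product of these kinases. They are the rows of the deposited gene table named Pik3ca, Pik3cb, Pik3cd, Pik3cg, Pik3r1, Pik3r2, Pik3r3, Pik3r5 and Inpp5d, 9 of 32623 genes, and each symbol matched 1 row. They were divided into 4 leukocyte genes (Pik3cd, Pik3cg, Pik3r5, Inpp5d) and 5 widely expressed ones (Pik3ca, Pik3cb, Pik3r1, Pik3r2, Pik3r3). Poly(A) RNA was sequenced from spinal cord of female Wistar rats, 8 weeks old and of 200 to 230 g, with 3 libraries in each of 3 groups. The study's title names the PI3K-AKT pathway. Sham rats had the lamina opened over an intact cord. C_Spinal rats had the cord injured and received distilled water by gavage, and both of these groups are labelled untreated. T_Spinal rats were injured and received 3 mL of Modified Erxian Decoction (MED), a herbal decoction, daily by the same route. The sources used here give neither the method and level of the injury, nor the time of sampling, nor whether each library is 1 animal, so p-values reflect only how far libraries of a group differ, and that may be technical variation. Whole cord holds many cell types, so for every gene below more cells of a type and more RNA per cell cannot be told apart.

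Class I PI3Ks add a phosphate to a membrane lipid and make PIP3, which draws kinases such as AKT and exchange factors such as VAV1 to the membrane. Each enzyme is a catalytic p110 subunit bound to a regulatory subunit. The alpha (Pik3ca) and beta (Pik3cb) catalytic subunits are made in most cells, whereas delta (Pik3cd) and gamma (Pik3cg) are made mainly in leukocytes, which in the cord means microglia and invading blood cells. Alpha, beta and delta bind regulatory subunits that read phosphorylated tyrosines (Pik3r1, Pik3r2, Pik3r3). Gamma binds p101 (Pik3r5) or p84 (Pik3r6), which couple it to G proteins. SHIP1 (Inpp5d), a phosphatase of blood cells, removes the 5-phosphate of PIP3, and SHIP2 (Inppl1) does so in many cells.

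The 250 bases before the gene start were read from RefSeq (build GRCr8) for 8 of the 9 genes. The windows of 4 genes are shown, from a pair of leukocyte genes that rose after injury and from the regulatory genes Pik3r1 and Pik3r2, which went opposite ways. Each is printed 5′ to 3′ on the gene's strand, and capitals mark the GC box letters GGGCGG on either strand. Pik3cg lies at chr6:54529510-54529759 (minus strand), Pik3r5 at chr10:53677582-53677831 (plus), Pik3r1 at chr2:34697661-34697910 (minus) and Pik3r2 at chr16:18699247-18699496 (plus).
Pik3cg: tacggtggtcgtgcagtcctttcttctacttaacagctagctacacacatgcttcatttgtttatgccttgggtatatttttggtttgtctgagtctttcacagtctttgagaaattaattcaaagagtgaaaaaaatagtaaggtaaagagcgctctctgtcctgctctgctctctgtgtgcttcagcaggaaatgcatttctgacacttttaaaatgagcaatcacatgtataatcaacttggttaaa
Pik3r5: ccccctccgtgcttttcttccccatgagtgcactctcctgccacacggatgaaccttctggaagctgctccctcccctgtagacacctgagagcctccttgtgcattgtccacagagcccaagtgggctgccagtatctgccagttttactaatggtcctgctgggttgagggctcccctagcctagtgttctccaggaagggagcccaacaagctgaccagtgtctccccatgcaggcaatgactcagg
Pik3r1: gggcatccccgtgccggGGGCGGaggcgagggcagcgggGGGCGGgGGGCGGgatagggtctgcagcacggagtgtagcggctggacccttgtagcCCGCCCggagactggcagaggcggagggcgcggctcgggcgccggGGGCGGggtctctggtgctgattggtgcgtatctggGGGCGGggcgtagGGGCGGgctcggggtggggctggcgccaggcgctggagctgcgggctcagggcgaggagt
Pik3r2: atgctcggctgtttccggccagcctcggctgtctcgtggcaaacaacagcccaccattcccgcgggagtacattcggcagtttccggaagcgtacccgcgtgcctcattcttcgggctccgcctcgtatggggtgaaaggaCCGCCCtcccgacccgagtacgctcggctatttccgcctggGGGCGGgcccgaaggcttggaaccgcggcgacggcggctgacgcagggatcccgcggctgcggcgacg
The window of Pik3r1 held 7 GC boxes and was 77.2% G and C, and that of Pik3r2 held 2 and was 68.0% G and C. GC box letters were found in neither of the leukocyte windows shown, nor in those of Pik3cd, Inpp5d, Pik3ca and Pik3r3, and 30.5% of 33469 RefSeq promoter windows of this length held them. G and C made up 38.0% of the Pik3cg window, 57.6% of Pik3r5, 51.6% of Pik3cd and 50.8% of Inpp5d, against a median of 51.2% over all windows. GAGGAA (the PU box) and TATAAA were searched on both strands as well and were in none of the 8 windows, against 23.3% and 12.9% of all windows. GGAAGT (an ETS core, which can overlap a PU box) was in the Pik3ca window alone, 166 bases before the start, against 19.2% of all windows. These matches describe letters in 1 window per gene and say nothing of whether a factor was bound.

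Library depth ran from 57.0 to 69.8 M counts (M, counts in units of 1e+06), and all 9 genes passed the minimum of a mean FPKM (read fragments scaled to the length of the gene and to the size of the library) of 1 over the 9 libraries. Fold changes come from counts with trimmed-mean (TMM) scaling, fitted with edgeR's quasi-likelihood test over 14791 genes, and a gene is said to rise or fall at a Benjamini-Hochberg adjusted p below 0.05. Neuron and oligodendrocyte markers, which mark the tissue as cord, were present in every group, and leukocyte markers moved with the groups. The summed FPKM of 12 pan-leukocyte and macrophage markers was 138 to 145 in Sham, 3050 to 3110 in C_Spinal and 2860 to 2900 in T_Spinal, with none of the 12 at 0 in any group. For 8 homeostatic microglia markers the sums were 142 to 145, 271 to 281 and 538 to 555, with Siglech at 0 in Sham and C_Spinal. The 10 neutrophil markers summed to 1.95 to 2.51, 65.7 to 69.0 and 32.8 to 34.2, S100a8, Cxcr1 and Ltf being at 0 in Sham and Ltf in T_Spinal. T and NK cell markers, of which 10 of 11 were in the table, summed to 7.68 to 9.17, 98.0 to 104 and 156 to 159, but most of this in the injured groups was Cd4 (means of 21.4 and 77.0) and Cd8a (59.6 and 57.4), which rat macrophages also make. Cd3d and Cd3g were at 0 in Sham. The T cell receptor chain gene Cd3e stood at a mean FPKM of 0.0115 in Sham, against 0.287 in C_Spinal and 0.527 in T_Spinal. The 7 B cell markers reached at most 2.50 in any library. The part of these cells in the results below was not tested.

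**Figure D1:**
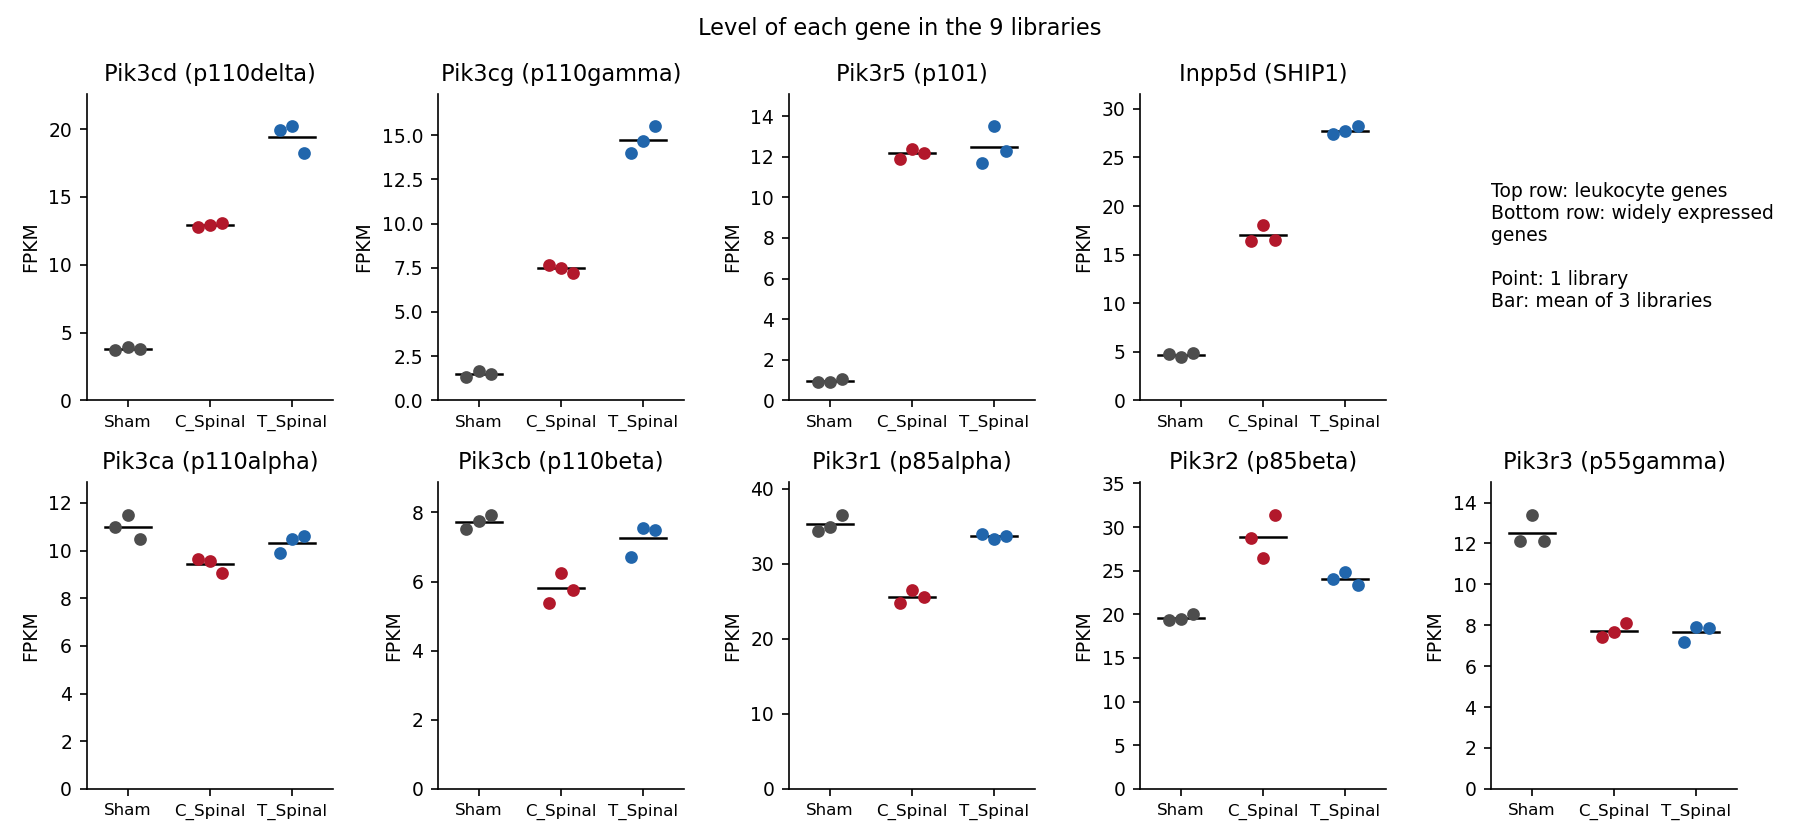
FPKM of the 9 genes in each of the 9 libraries (y axis, from 0) by group (x axis); points are libraries and bars are means of 3. Pik3cd, Pik3cg and Inpp5d step up from Sham to C_Spinal and again to T_Spinal, Pik3r5 steps up once, and the 5 widely expressed genes stay between 5.39 and 36.5.

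Injury was set against intact cord by comparing C_Spinal with Sham. All 4 leukocyte genes rose, by 3.12- to 11.7-fold, while 4 of the 5 widely expressed genes fell by 1.27- to 1.76-fold and Pik3r2 rose 1.35-fold. So 5 of 9 genes were higher and 4 lower, in a comparison where 38.1% of the 14791 tested genes were called higher and 37.4% lower, 75.4% in all. The FPKM of no gene overlapped between the groups, 5 being higher and 4 lower in every injured library, as were 45.6% and 33.9% of tested genes (79.5% in all). The median log2 fold change was 1.96 over the leukocyte genes and -0.54 over the widely expressed ones, against 0.02 over all tested genes.

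Among leukocyte catalytic subunits, Pik3cd had FPKM values of 3.74, 3.90 and 3.81 in Sham and 12.8, 12.9 and 13.1 in C_Spinal. The lowest injured library was far above the highest Sham library, and the log2 fold change was 1.64 (SE 0.0502, adjusted p = 5.03e-10, edgeR). Pik3cg, the G protein-coupled isoform, was at 1.31, 1.66 and 1.49 in Sham and at 7.68, 7.50 and 7.20 in C_Spinal. Its groups did not overlap either, and the fitted log2 difference was 2.20 (SE 0.0813, adjusted p = 2.03e-09, edgeR).

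Of the partners of gamma, Pik3r5 went from 0.896, 0.897 and 1.06 FPKM in Sham to 11.9, 12.4 and 12.2 in C_Spinal. It had the lowest level of the 9 genes in Sham and the largest fold of the 9 after injury, at 3.55 on the log2 scale (SE 0.0847, adjusted p = 8.13e-11, edgeR). Pik3r6, which encodes the alternative partner and is not one of the 9, rose by 0.85 (SE 0.133, adjusted p = 0.000191, edgeR), from 1.26 ± 0.215 (SD, n = 3) to 2.47 ± 0.152 FPKM. Pik3r5 and Pik3r6 are neighbours on the plus strand of chromosome 10 of the deposited table (Pik3r5 55013703 to 55080421, Pik3r6 55085259 to 55135092), 4837 bases apart. Inpp5d stood at 4.77, 4.45 and 4.84 FPKM in Sham and at 16.4, 18.0 and 16.5 in C_Spinal. This rise in SHIP1 transcript, 1.73 on the log2 scale (SE 0.0468, adjusted p = 1.96e-10, edgeR), was close in size to that of Pik3cd.

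The widely expressed catalytic subunits moved the other way. Pik3ca had 11.0, 11.5 and 10.5 FPKM in Sham against 9.64, 9.58 and 9.07 in C_Spinal, which is -0.35 on the log2 scale (SE 0.0474, adjusted p = 7.00e-05, edgeR). Pik3cb, which answers both tyrosine kinase and G protein receptors, had 7.52, 7.75 and 7.93 against 5.39, 6.26 and 5.75, a change of -0.54 (SE 0.0708, adjusted p = 5.16e-05, edgeR). Neither gene's groups overlapped, and both differences were small beside those of the leukocyte genes. Neuron and oligodendrocyte markers were lower alongside, the summed FPKM of 7 oligodendrocyte markers being 26700 to 26900 in Sham, 7960 to 8040 in C_Spinal and 9700 to 9860 in T_Spinal, and their part in the falls of the widely expressed genes was not tested.

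Regulatory subunits split. Pik3r1, the p85alpha gene and the most abundant of the 9 in Sham, was at 34.3, 34.9 and 36.5 FPKM in Sham and 24.8, 26.5 and 25.5 in C_Spinal (log2 fold change -0.58, SE 0.0336, adjusted p = 6.85e-08, edgeR). Pik3r3, the p55gamma gene, was at 12.1, 13.4 and 12.1 against 7.42, 7.68 and 8.11 (-0.82, SE 0.0734, adjusted p = 2.43e-06, edgeR). Pik3r2, the p85beta gene, went up, from 19.4, 19.5 and 20.0 to 28.7, 26.5 and 31.4 (0.43, SE 0.0570, adjusted p = 5.08e-05, edgeR). The groups of none of these 3 genes overlapped. The FPKM of Pik3r2 per FPKM of Pik3r1 was 0.557 ± 0.00832 (SD, n = 3) in Sham and 1.13 ± 0.117 in C_Spinal, so the means of the pair changed places, with 1 C_Spinal library at a ratio of 1.00.

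The decoction was assessed by comparing T_Spinal with C_Spinal. Of the 4 leukocyte genes 3 rose further, by 1.46- to 1.92-fold, Pik3r5 did not pass the test, and the widely expressed genes shifted by at most 1.28-fold. In all 5 of the 9 genes were higher and 1 lower, where 20.7% of tested genes were called higher and 17.9% lower, 38.6% in all. By FPKM 6 genes were higher and 1 lower in every T_Spinal library, against 30.3% and 21.7% of tested genes (52.0% in all). The median log2 fold change was 0.61 over the leukocyte genes and 0.09 over the widely expressed ones, against 0.00 over all tested genes.

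Pik3cg changed most of the 9, with 14.0, 14.7 and 15.5 FPKM in T_Spinal against 7.68, 7.50 and 7.20 in C_Spinal. The log2 fold change was 0.94 (SE 0.0767, adjusted p = 1.01e-05, edgeR). Inpp5d reached 27.4, 27.7 and 28.2 FPKM, up by 0.67 (SE 0.0450, adjusted p = 2.91e-06, edgeR), and Pik3cd reached 19.9, 20.2 and 18.2, up by 0.55 (SE 0.0484, adjusted p = 1.75e-05, edgeR). For these 3 genes every T_Spinal library was above every C_Spinal library. All 7 tested homeostatic microglia markers rose in the same comparison (median log2 fold change 1.29), as did 20.7% of all tested genes. The part of microglia in the rise of Pik3cg, Inpp5d and Pik3cd was not tested. Pik3r5 had 11.7, 13.5 and 12.3 FPKM in T_Spinal against 11.9, 12.4 and 12.2 in C_Spinal. Its groups overlapped, and the log2 fold change was 0.00, with a 95% confidence interval of -0.17 to 0.17 (adjusted p = 0.999, edgeR). That interval holds no change as large as those of Pik3cg, Inpp5d and Pik3cd. Pik3r6 was higher in T_Spinal, at 3.64 ± 0.190 FPKM (SD, n = 3), by 0.52 on the log2 scale (SE 0.131, adjusted p = 0.0109, edgeR).

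Among widely expressed genes, Pik3r1 was at 34.0, 33.3 and 33.7 FPKM in T_Spinal, above all C_Spinal libraries, higher by 0.36 on the log2 scale (SE 0.0335, adjusted p = 2.62e-05, edgeR). Pik3cb was at 6.72, 7.54 and 7.50 and rose by 0.29 (SE 0.0707, adjusted p = 0.00995, edgeR). Pik3r2, at 24.1, 24.8 and 23.4, fell by 0.29 (SE 0.0569, adjusted p = 0.00262, edgeR). Pik3ca had 9.89, 10.5 and 10.6 FPKM, every library above those of C_Spinal, and a log2 fold change of 0.09 whose 95% interval was -0.02 to 0.20 (adjusted p = 0.160, edgeR). Pik3r3 had 7.20, 7.90 and 7.89 FPKM, within the range of C_Spinal apart from its lowest library, and a log2 fold change of -0.05 with an interval of -0.21 to 0.11 (adjusted p = 0.625, edgeR). Markers of Schwann cells and of fibroblasts and meninges were, like Pik3r2, highest in C_Spinal, and their part in its rise and fall was not tested. The summed FPKM of 6 Schwann cell markers was 689 to 708 in Sham, 1380 to 1410 in C_Spinal and 429 to 441 in T_Spinal, with all 6 higher after injury and all 6 lower in T_Spinal than in C_Spinal. For the fibroblast and meninges markers, 6 genes on 7 rows since Crabp2 names 2, the sums were 94.3 to 97.3, 1290 to 1310 and 614 to 623, with 6 rows higher after injury and all 7 lower in T_Spinal than in C_Spinal. Of all tested genes 38.1% were higher after injury and 17.9% lower in T_Spinal than in C_Spinal. None of the Schwann cell markers was at 0 in any group, and of the others 1 row of Crabp2 was at 0 in T_Spinal. That row had counts of 0, 0 and 460 in C_Spinal, so its fall rested on 1 library and its groups overlapped. In Pik3r1, Pik3cb and Pik3r2 the sign in T_Spinal was opposite to that of injury, in comparisons that share the C_Spinal libraries.

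**Figure D2:**
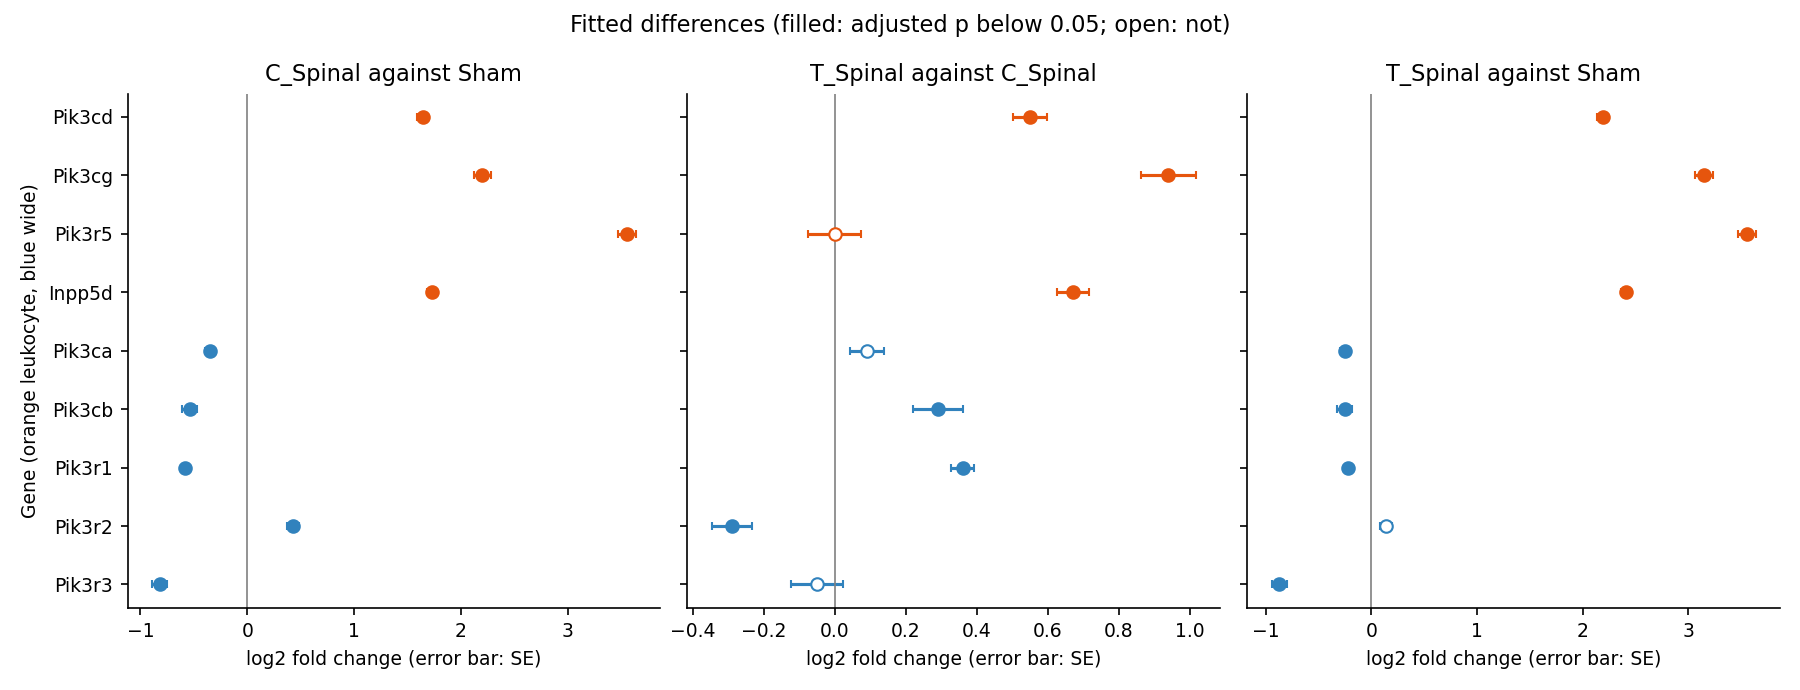
Fitted log2 fold change (x axis, scaled separately in each panel) with its SE for the 9 genes (y axis) in the 3 comparisons; orange marks leukocyte genes, blue widely expressed genes, and open points those that did not pass the test. After injury the leukocyte genes lie between 1.64 and 3.55 and the widely expressed ones between -0.82 and 0.43, and Pik3r5 lies at 0.00 in T_Spinal against C_Spinal.

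Injured cord with the decoction was also compared with intact cord. The 4 leukocyte genes were higher in T_Spinal than in Sham, 4 of 5 widely expressed genes were lower, and 35.0% of tested genes were called higher and 36.6% lower, 71.5% in all. By FPKM 5 genes (the leukocyte genes and Pik3r2) were higher and 2 (Pik3r1 and Pik3r3) lower without overlap, against 45.0% and 30.7% of tested genes (75.7% in all). Pik3r5 had a log2 fold change of 3.55 (SE 0.0847), Pik3cg 3.15 (SE 0.0837), Inpp5d 2.41 (SE 0.0476) and Pik3cd 2.19 (SE 0.0509), with edgeR adjusted p values of 2.40e-10 or below. Pik3r3 was lower by 0.87 on the log2 scale (-0.87, SE 0.0734, adjusted p = 1.78e-06, edgeR). Differences for Pik3ca (-0.25, SE 0.0473), Pik3cb (-0.25, SE 0.0705) and Pik3r1 (-0.22, SE 0.0334) were smaller, with edgeR adjusted p values of 0.000702, 0.00877 and 0.000144. The FPKM of the T_Spinal and Sham libraries overlapped for Pik3ca and Pik3cb but not for Pik3r1. FPKM are not rescaled by the trimmed mean, and the part of this in the overlap was not tested. The calls of these 3 genes ended with total counts as the scale (adjusted p = 0.0821, 0.252 and 0.0984, edgeR). That scale moved the median of all tested genes from -0.02 to 0.14, and the share of calls that were higher from 48.9% to 59.6%. Pik3r2 was at 0.14 (95% interval 0.01 to 0.27, adjusted p = 0.0503, edgeR), just outside the threshold.

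The summed FPKM of the 4 catalytic genes stood at 24.0 ± 0.673 (SD, n = 3) in Sham libraries, 35.6 ± 0.566 in those of C_Spinal and 51.7 ± 1.16 in those of T_Spinal. Pik3ca made up 46.7%, 46.4% and 44.3% of this sum in the Sham libraries, 27.1%, 26.4% and 25.8% in C_Spinal and 19.6%, 19.8% and 20.4% in T_Spinal. Pik3cd made up 15.9% ± 0.164 in Sham, 36.3% ± 0.888 in C_Spinal and 37.6% ± 2.20 in T_Spinal, whose libraries overlapped with those of C_Spinal. Pik3cg took 6.18% ± 0.580, 20.9% ± 0.603 and 28.5% ± 1.25 in the same order, with no overlap between groups. Pik3cb took 32.2% ± 1.10, 16.3% ± 1.05 and 14.0% ± 0.643. Delta and gamma together, divided by alpha and beta together, came to 0.273, 0.289 and 0.287 in the Sham libraries, 1.36, 1.29 and 1.37 in C_Spinal and 2.04, 1.94 and 1.86 in T_Spinal. The leukocyte isoforms were thus the minor part of catalytic transcript in every Sham library and the major part in every injured library. These ratios of FPKM were not tested, being scores over genes chosen with results of these data known.

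Among regulatory genes, the summed FPKM of Pik3r1, Pik3r2, Pik3r3, Pik3r5 and Pik3r6 lay closer between groups, at 69.6 ± 1.74 (SD, n = 3) in Sham, 76.8 ± 2.44 in C_Spinal and 81.6 ± 1.58 in T_Spinal. Pik3r5 held 1.37% ± 0.113 of it in Sham, 15.8% ± 0.521 in C_Spinal and 15.3% ± 0.859 in T_Spinal. Pik3r1 held 50.6% ± 0.710, 33.4% ± 1.49 and 41.3% ± 1.17, and Pik3r2 28.2% ± 0.336, 37.5% ± 2.28 and 29.6% ± 0.468. The share of Pik3r3 was 18.0% ± 1.07 in Sham and 10.1% ± 0.172 and 9.39% ± 0.425 in the injured groups.

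**Figure D3:**
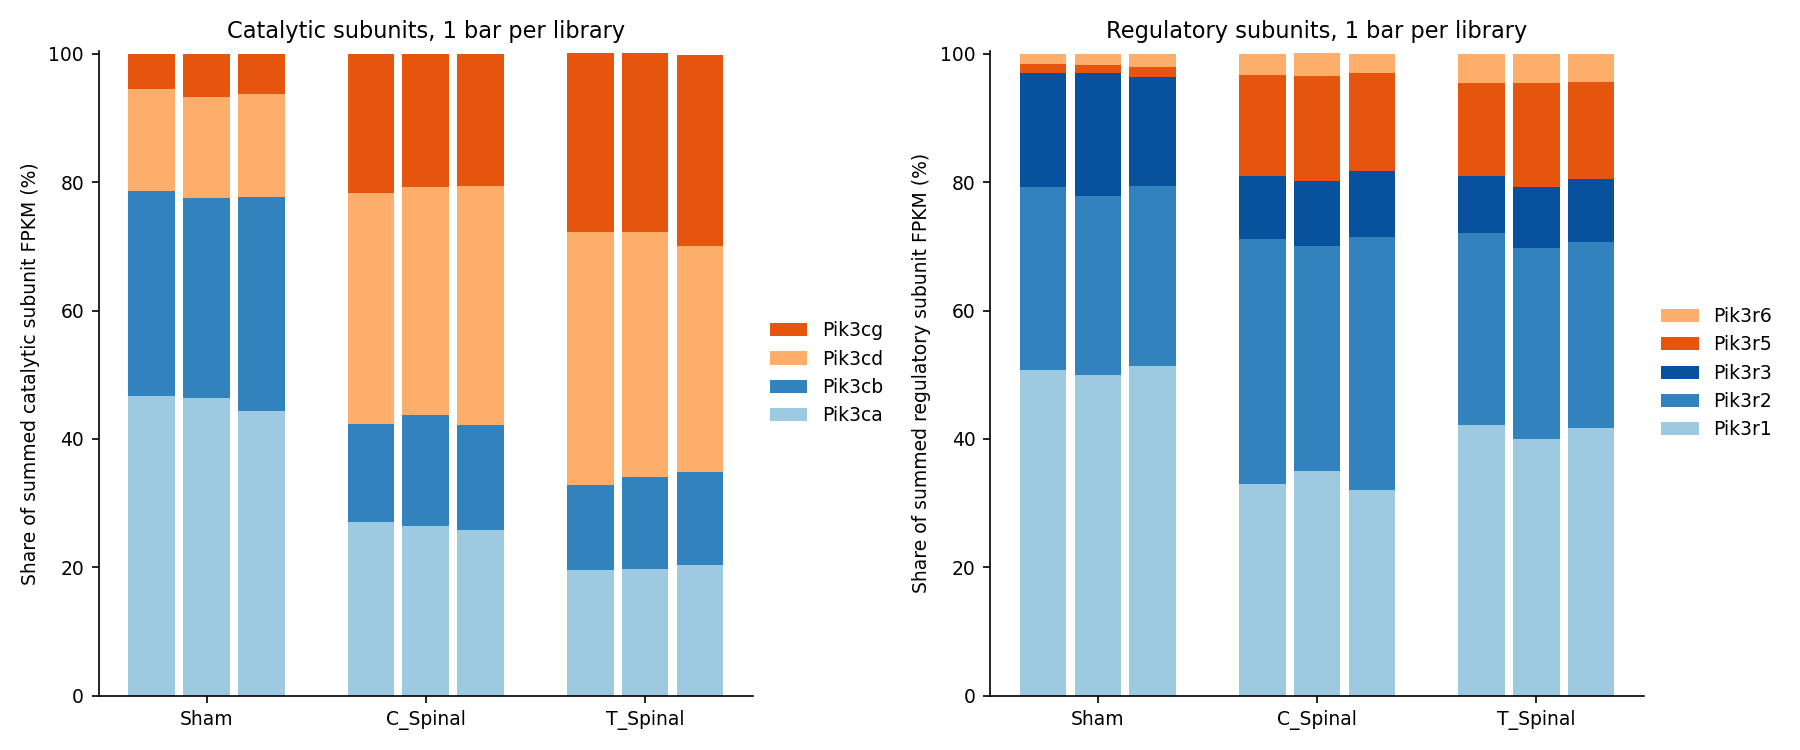
Share of the summed FPKM (y axis, %) of catalytic subunits (left) and regulatory subunits (right) in each library, with 3 bars per group. Pik3cd and Pik3cg (orange shades, left) widen from Sham to C_Spinal and Pik3cg again to T_Spinal, and Pik3r5 (dark orange, right) widens from Sham to both injured groups.

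By FPKM the order of the 9 genes in Sham was Pik3r1, Pik3r2, Pik3r3, Pik3ca, Pik3cb, Inpp5d, Pik3cd, Pik3cg and Pik3r5, and no neighbours in that order overlapped. In C_Spinal the order was Pik3r2, Pik3r1, Inpp5d, Pik3cd, Pik3r5, Pik3ca, Pik3r3, Pik3cg and Pik3cb, where Pik3r3 and Pik3cg overlapped. In T_Spinal it was Pik3r1, Inpp5d, Pik3r2, Pik3cd, Pik3cg, Pik3r5, Pik3ca, Pik3r3 and Pik3cb, where Pik3r3 and Pik3cb overlapped. Inpp5d thus ranked 6 in Sham, against 3 in C_Spinal and 2 in T_Spinal.

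The leukocyte genes were next set against Ptprc, which encodes CD45, a surface phosphatase of all nucleated blood cells. Ptprc stood at 2.32, 2.16 and 2.19 FPKM in Sham, 16.9, 17.3 and 17.8 in C_Spinal and 29.0, 28.9 and 25.1 in T_Spinal, with log2 fold changes of 2.84 (SE 0.0645) after injury and 0.64 (SE 0.0589) in T_Spinal against C_Spinal. Per Ptprc, Pik3cd was at 1.72 ± 0.0992 (SD, n = 3) in Sham, 0.748 ± 0.0103 in C_Spinal and 0.703 ± 0.0184 in T_Spinal. Inpp5d per Ptprc was at 2.11 ± 0.0845, 0.980 ± 0.0548 and 1.01 ± 0.0990. Relative to Ptprc both were therefore lower in injured cord than in Sham, and the injured groups lay close together, overlapping for Inpp5d. Pik3cg per Ptprc was at 0.672 ± 0.104, 0.431 ± 0.0248 and 0.536 ± 0.0704. Pik3r5 per Ptprc differed from the other 3, at 0.429 ± 0.0502 in Sham, 0.702 ± 0.0150 in C_Spinal and 0.453 ± 0.0449 in T_Spinal, and was the only one of the 4 ratios that was higher in C_Spinal than in Sham. The other denominator used was the summed FPKM of the 12 pan-leukocyte markers, which the large rise of Cd68 (log2 fold change 7.99) enters. Most of that sum in the injured groups was Lyz2, at means of 1830 of 3090 in C_Spinal and 1470 of 2880 in T_Spinal. Cd68 had means of 625 and 509. Lyz2 was lower in T_Spinal than in C_Spinal (-0.35, SE 0.0312), the only 1 of the 12 called lower, while 6 were called higher. Of all tested genes 17.9% were lower and 20.7% higher. With this sum the order of the injured groups was reversed for Pik3cd and Pik3r5. Inpp5d as a percentage of that sum was at 3.32 ± 0.178 in Sham, 0.550 ± 0.0258 in C_Spinal and 0.965 ± 0.0174 in T_Spinal. Pik3cd was at 2.70 ± 0.112, 0.419 ± 0.00266 and 0.675 ± 0.0351, and Pik3cg at 1.05 ± 0.142, 0.242 ± 0.0100 and 0.512 ± 0.0263. For these 3 genes every T_Spinal library was above every C_Spinal library and below every Sham library. Per Ptprc, Pik3cg was likewise higher in every T_Spinal library than in any of C_Spinal, whereas Pik3cd was lower in every T_Spinal library. For Pik3cd and Inpp5d the difference between the injured groups relative to leukocyte markers thus depends on the markers chosen. Pik3r5, higher after injury per Ptprc, was lower after injury as a percentage of the sum, at 0.674 ± 0.0837, 0.394 ± 0.00525 and 0.434 ± 0.0299. On raw counts the percentage for Pik3r5 came to 1.21 in Sham, 1.23 in C_Spinal and 1.16 in T_Spinal, so its order depends on scaling by length.

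Pik3r5 and Pik3cg, whose proteins form a complex, had a ratio of 0.685, 0.539 and 0.712 in Sham, 1.55, 1.65 and 1.70 in C_Spinal and 0.831, 0.919 and 0.793 in T_Spinal. All C_Spinal libraries were above all others. Pik3r6 per Pik3cg was by contrast highest in Sham, at 0.853 ± 0.133 (SD, n = 3), and was 0.331 ± 0.0216 in C_Spinal and 0.247 ± 0.0218 in T_Spinal. These ratios were picked out after the values were seen and were not tested, and with 3 libraries against 3 an exact two-sided permutation test cannot go below 0.10.

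**Figure D4:**
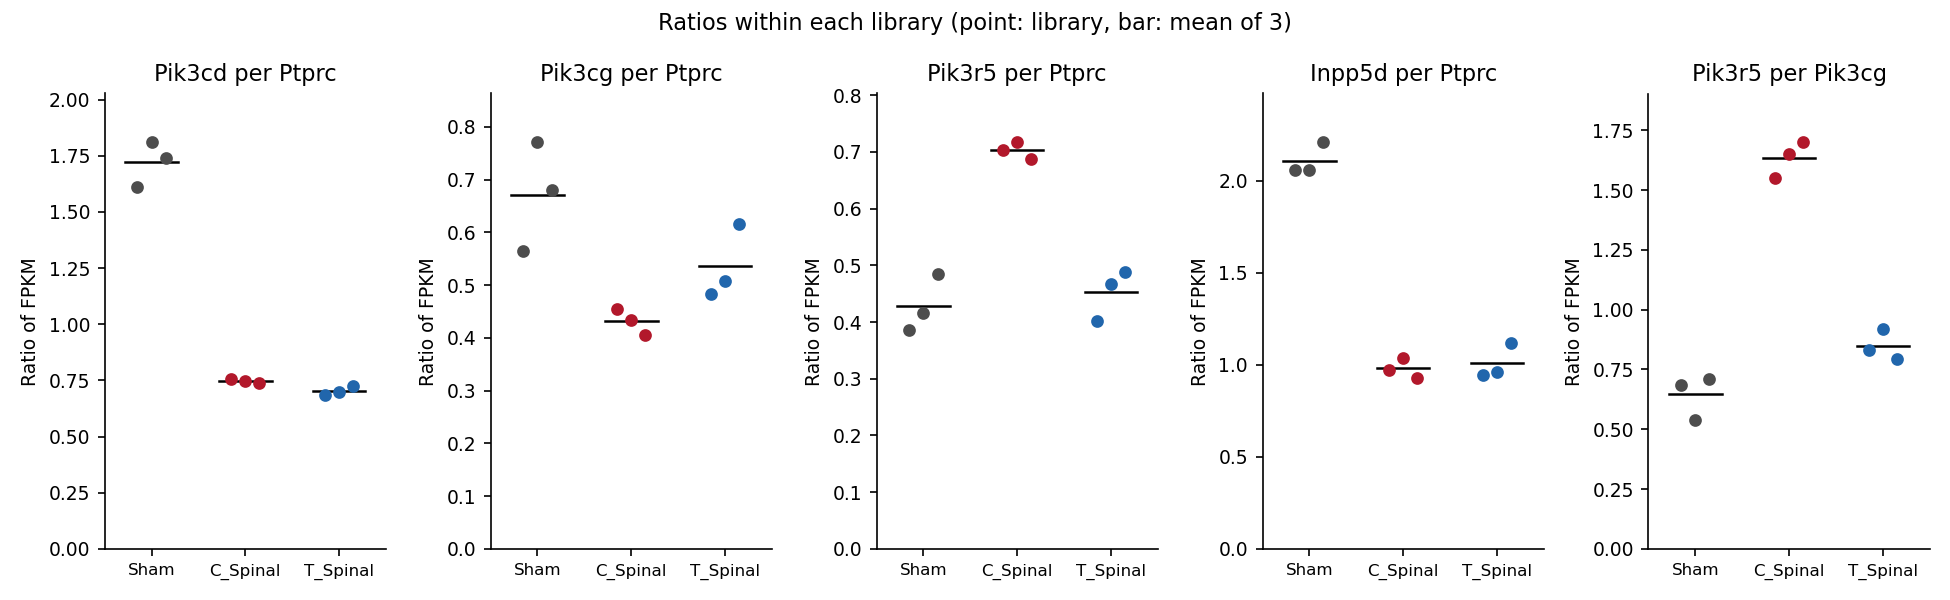
Ratios of FPKM within each library (y axis, from 0) by group (x axis): each leukocyte gene per Ptprc, and Pik3r5 per Pik3cg; points are libraries and bars are means of 3. Pik3cd and Inpp5d per Ptprc are lower in both injured groups than in Sham, and the ratios with Pik3r5 on top are highest in C_Spinal.

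Turning to phosphatases, SHIP1 transcript rose in both steps and SHIP2 transcript in the first. Inppl1 rose after injury by 0.55 (SE 0.0504, adjusted p = 3.03e-06, edgeR), from 19.8 ± 1.49 to 31.5 ± 0.495 FPKM (SD, n = 3), and had 0.02 in T_Spinal against C_Spinal (interval -0.09 to 0.13, adjusted p = 0.799, edgeR). Inpp5d per Inppl1 came to 0.237 ± 0.0145 (SD, n = 3) in Sham, to 0.539 ± 0.0207 in C_Spinal and to 0.850 ± 0.0390 in T_Spinal. Every library of the 9 therefore held less SHIP1 than SHIP2 transcript per length, and the groups did not overlap. Of 13 tested phosphoinositide phosphatases other than Inpp5d, 2 rose and 9 fell after injury (median -0.59), where 38.1% of all tested genes rose and 37.4% fell. In T_Spinal against C_Spinal 4 of the 13 rose and none fell (median 0.05), where 20.7% of all tested genes rose and 17.9% fell, 38.6% in all. The steepest falls were those of Inpp4b and Inpp4a, which remove the 4-phosphate of a SHIP product, at -1.48 (SE 0.144) and -1.07 (SE 0.0814), and of Synj1, the synaptojanin of nerve terminals, at -0.98 (SE 0.0807). In T_Spinal Synj2 (0.46, SE 0.0442), Inpp4b (0.44, SE 0.143) and Inpp4a (0.36, SE 0.0808) were higher than in C_Spinal. Neuron markers moved with them: the summed FPKM of 9 was 1430 to 1490 in Sham, 120 to 121 in C_Spinal and 197 to 202 in T_Spinal, and their part in these falls was not tested.

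The other class I genes on the list, Pik3r6, Pik3ap1 and Pik3ip1, all rose after injury (median 0.85), as did 38.1% of all tested genes. The call of Pik3ip1 was marginal (0.37, SE 0.151, adjusted p = 0.0464, edgeR), and its groups overlapped. In T_Spinal against C_Spinal 2 of the 3 rose (median 0.39), as did 20.7% of all tested genes. Pik3ap1, the BCAP adaptor that links immune receptors to PI3K, rose by 2.33 (SE 0.0561, adjusted p = 8.75e-11, edgeR) after injury and by 0.39 (SE 0.0526, adjusted p = 0.000290, edgeR) in T_Spinal against C_Spinal, at 2.68 ± 0.176, 14.6 ± 0.463 and 19.7 ± 0.683 FPKM (SD, n = 3) in Sham, C_Spinal and T_Spinal. All 4 tested genes of class II and III PI3K fell after injury (median -0.62), as did 37.4% of all tested genes, with the class II gene Pik3c2b at -0.99 (SE 0.0772) and Pik3c3, the lipid kinase of autophagy and endosomes, at -0.81 (SE 0.0667). In T_Spinal 3 of these 4 were higher than in C_Spinal, as were 20.7% of all tested genes. Pik3c2b was higher by 0.45 (SE 0.0767) and Pik3c3 by 0.40 (SE 0.0665). The fifth gene of that list, Pik3c2g, was under the expression minimum.

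Adaptors that recruit PI3K gave 4 rises and 5 falls among 12 tested genes after injury (median -0.05), a share of calls close to the 75.4% of all tested genes. The rises belonged to Hcst and Tyrobp, the DAP10 and DAP12 signalling chains of myeloid and NK receptors, at 5.01 (SE 0.657, from 0 to 10 counts a Sham library) and 4.23 (SE 0.0661), to the kinase Syk at 3.50 (SE 0.143) and to Shc1 at 2.19 (SE 0.0785). The insulin receptor substrate Irs2, at -0.93 (SE 0.0611), and the docking protein Gab1, at -0.75 (SE 0.0395), were among the falls. In T_Spinal against C_Spinal, 4 rose and 1 fell (median 0.14), where 20.7% of all tested genes rose and 17.9% fell. Cbl, a ubiquitin ligase that binds p85, rose by 0.83 (SE 0.107) and Gab1 by 0.45 (SE 0.0394), while Hcst (-0.01, SE 0.502), Tyrobp (-0.11, SE 0.0567) and Syk (0.12, SE 0.126) did not pass the test.

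Downstream, 10 of 11 tested genes listed as PIP3 effectors of leukocytes rose after injury and none fell (median 2.51), against 38.1% and 37.4% of all tested genes. Whether each listed protein responds to PIP3, Themis2 and Tagap included, was not checked. Vav1, an exchange factor for small GTPases, rose by 3.26 (SE 0.0950), Tec, a tyrosine kinase, by 3.24 (SE 0.0969) and Themis2 by 2.92 (SE 0.154). Prex1, an exchange factor opened by PIP3 and G proteins, was the exception at -0.05 (SE 0.0515). In T_Spinal against C_Spinal 6 of these 11 rose and 1 fell (median 0.39), against 20.7% and 17.9% of all tested genes, with Dapp1, a PIP3-binding adaptor, at 0.60 (SE 0.0992), Vav1 at 0.56 (SE 0.0849) and Tagap at -0.74 (SE 0.107). Of 14 widely expressed effectors 7 rose and 6 fell after injury (median 0.03), an even split like that of all tested genes (38.1% and 37.4%). Akt1 rose by 0.28 (SE 0.0260), whereas Prex2, a PIP3-dependent exchange factor, had -1.61 (SE 0.0679). In T_Spinal against C_Spinal 7 of the 14 rose and 3 fell (median 0.18), against 20.7% and 17.9% of all tested genes, with Prex2 at 0.72 (SE 0.0669), Cyth3 at -0.70 (SE 0.0677) and Akt1 at -0.02 (SE 0.0260), which did not pass the test.

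Of 9 genes listed as partners of SHIP1, 8 were in the table and 7 were tested. All 7 rose after injury (median 2.19), where 38.1% of all tested genes rose. Whether each listed protein binds SHIP1, Sirpa included, was not checked, and Shc1 is also counted among the adaptors above. Dok3, an adaptor that brings SHIP1 to immune receptors, was at 4.84 (SE 0.102), Cd300lf, an inhibitory myeloid receptor, at 3.78 (SE 0.0724) and Fcgr2b, the inhibitory Fc receptor, at 3.12 (SE 0.0683). With the decoction they diverged, 2 being higher and 3 lower than in C_Spinal (median -0.11), against 20.7% and 17.9% of all tested genes. Fcgr2b went from 28.9 ± 1.36 to 52.0 ± 3.40 FPKM (SD, n = 3), or 0.81 on the log2 scale (SE 0.0616), while Dok3 went from 20.2 ± 1.01 to 14.8 ± 0.600, a change of -0.48 (SE 0.0827). In the same comparison 6 of 12 pan-leukocyte markers were higher and 1 lower (median 0.26), against the same 20.7% and 17.9%. Csf1r was at 1.13 (SE 0.0267), and Aif1 at 0.05 (SE 0.0733) did not pass the test.

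**Figure D5:**
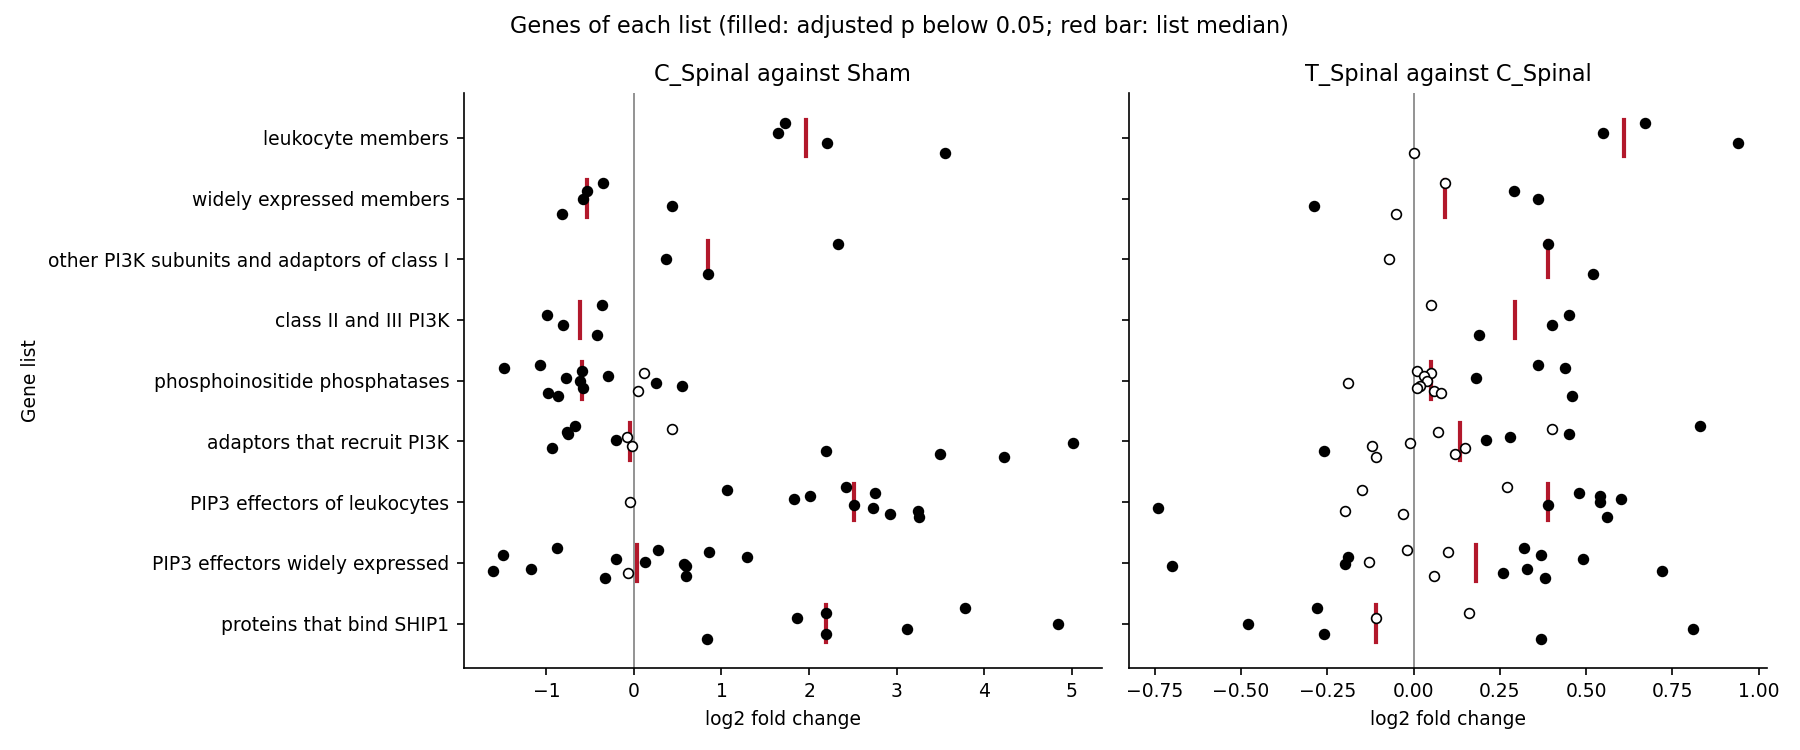
log2 fold change (x axis, scaled separately in each panel) of every tested gene of the pathway lists (y axis), after injury (left) and in T_Spinal against C_Spinal (right); filled points passed the test and red bars are list medians. Leukocyte genes, leukocyte PIP3 effectors and SHIP1 partners have medians of 1.96, 2.51 and 2.19 on the left, and 0.61, 0.39 and -0.11 on the right.

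Genes with the most similar profile to each of the 9 were ranked by the root mean square difference of log2(FPKM + 1) over the 9 libraries, each profile centred on its own mean. For Inpp5d they included Rab3il1, at a difference of 0.0411, and the receptor Tgfbr1, at 0.0515. Rab3il1 had mean FPKM values of 5.59, 19.8 and 32.2 in the Sham, C_Spinal and T_Spinal libraries. Pik3cd was closest to the lysosomal phospholipase Pla2g15 (0.0609), the fructose transporter Slc2a5 (0.0612) and the hexokinase Hk2 (0.0664), and Pik3cg to the scavenger receptor Olr1 (0.0904), Pld4 (0.0956) and Gpr183 (0.0985). Pik3r5 had other neighbours, the lectin Cd72 (0.0716), the metalloproteinase Mmp19 (0.0726) and the peptidase Dpp7 (0.0852). Mmp19, at 3.40, 28.6 and 29.7 FPKM, shared with Pik3r5 a step after injury and similar levels in both injured groups. Among the widely expressed genes, Pik3r2 had Gdpd5 (0.0348), Phc2 (0.0456) and Ccdc130 (0.0524). The nearest genes were Daam1 for Pik3ca (0.0302), Asap1 for Pik3cb (0.0339), Prkar2a for Pik3r1 (0.0337) and Zfp810 for Pik3r3 (0.0387). These distances over 9 libraries that fall into 3 groups are descriptions and carry no test.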

How the data were processed

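RNA of 9 spinal cord libraries was sequenced as stranded paired-end poly(A) libraries from RNA with an integrity number above 7.0, per the labels' protocols. HISAT and StringTie are named, without versions, in the submitters' processing notes, and neither build, annotation nor whether strand was used in counting is stated (not given in the sources used here). Values deposited per gene are whole-number read counts and FPKM, in which a count of 0 is listed as 0.0001. Chromosome positions are those of that table. Promoter windows come from RefSeq GRCr8, with no coordinates shared between builds. No protein table was used here, so identities between subunits were not computed.

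Genes whose mean FPKM reached 1 (14791 genes, 99.7% of counts, from 22666 with a count) were tested in R 4.3.3 with edgeR 4.0.16 (trimmed mean scaling, quasi-likelihood test, 9 libraries in 1 fit, no covariate), with Benjamini-Hochberg adjustment over all of them. SE is the absolute log2 fold change divided by the square root of F. Alternatives were other scalings and expression minimums, DESeq2 1.42.0, limma 3.58.1 on log2(FPKM + 1) and log2(FPKM + 0.1), a replicate block, fits of 2 groups and omission of each library. The fit was tested on simulated data. Groups overlap or not by FPKM. The members and lists were chosen with earlier results of these data known. Named were all 9 members, up to 3 called and non-overlapping genes of largest change per list and comparison, Inppl1, Akt1, Pik3ap1, Ptprc and Aif1, and the 3 genes nearest to each member. Any other gene was named after its values were seen. A few genes that this rule picks are not reported here. Between libraries of a group, the squared difference in counts relative to counting noise averaged 20.9 to 31.2 per gene over tested genes. A small share of genes can raise such a mean, and it was not computed for the 9 members alone. No gene of the table overlaps a member.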

Additional observations from a re-analysis of the deposited data

How the results depend on the processing

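Over 18 alternatives for each of 9 genes and 3 comparisons, 462 values kept their direction and their side of the threshold, 9 lost the call, 11 gained it and 4 changed sign. All 9 calls of C_Spinal against Sham and all 6 of T_Spinal against C_Spinal were kept in every alternative run. In T_Spinal against C_Spinal the value of Pik3r5 (0.00014) turned to -0.00116 with the replicate block, -0.00122 with only these 2 groups, -0.02 without C_Spinal replicate 1 and -0.06 without T_Spinal replicate 2, adjusted p = 0.590 to 0.992 in these, and it lay between -0.06 and 0.05 when 1 library was left out. In T_Spinal against Sham, 1 gene in place of 4 was lower with total counts and with limma on log2(FPKM + 1) or log2(FPKM + 0.1), Pik3ca, Pik3cb and Pik3r1 being lost. Pik3r2 there passed the threshold in 11 of 18 alternatives, at log2 fold changes of up to 0.30. With raw counts in place of FPKM, the ratio of leukocyte to wide catalytic subunits was 0.259 in Sham and 1.25 in C_Spinal. The replicate numbers did not pair the libraries (correlations of deviations from group means of -0.079 to 0.092 over 9 pairs), and the replicate block left every call of the 9 genes in place. With the replicate block 2827 genes were higher and 2408 lower in T_Spinal against C_Spinal, against 3057 and 2650. The number of libraries limits the precision of small changes such as those of Pik3ca.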
